A study of Mus musculus with 50 samples.

Results

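Semaphorins, plexins, neuropilins, ephrins and Eph receptors are the genes described here. They were taken as every protein-coding gene of the GENCODE M21 annotation (mouse genome build mm10) whose symbol begins with Sema, Plxn, Nrp1, Nrp2, Efna, Efnb, Epha or Ephb, which gave 53 of 21938 genes. The 53 were 20 semaphorins (7 of class 3, 6 of class 4, 2 of class 5, 4 of class 6 and 1 of class 7), 9 plexins, 2 neuropilins, 5 ephrin-A, 3 ephrin-B, 9 EphA and 5 EphB genes. Binding of the glucocorticoid receptor (GR, the hormone-activated transcription factor encoded by Nr3c1) and of nuclear factor I-A (NFIA, a DNA-binding factor of the astrocyte lineage) near these genes was read from the deposited CUT&RUN peak lists. In CUT&RUN an antibody directs a nuclease to a protein on chromatin, and the short fragments it releases are sequenced. The value given for a gene is the number of peaks whose summit lay within 50 kb of its transcription start, counted separately in each library.

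Peak lists of 39 libraries were used, 27 for GR and 12 for NFIA. The in vivo libraries were made from sorted nuclei of mouse primary visual cortex (V1) at postnatal day 14. Astrocytes were labelled by a virus whose GfaABC1D promoter drives a nuclear-envelope GFP. They were profiled for GR after normal rearing in a light-dark cycle (NR, 3 libraries) and after rearing in darkness from birth (DR, 3 libraries). For NFIA they were profiled after normal rearing (3 libraries). The mice of the NR and DR GR libraries were wild-type C57BL/6, and their virus also carried inactive Cre. For astrocyte NFIA the study's methods name only mice with floxed Nr3c1 alleles. Whether the mice of the NFIA astrocyte libraries carried these alleles is therefore not settled here. GR was also profiled in normally reared GR-con and GR-KO astrocytes (2 libraries each). Both came from mice with floxed Nr3c1 alleles, given a virus with inactive Cre (GR-con) or active Cre (GR-KO). The arms thus shared floxed alleles and virus injection, and differed in the Cre that the virus carried. Nuclei of oligodendrocytes, of inhibitory neurons (InN) and of excitatory neurons (called ExN) were labelled with Sun1-GFP switched on by Olig2-Cre, Slc32a1-Cre and Slc17a7-Cre, in that order (Sun1-GFPfl/fl in the labels, heterozygous for the floxed allele in the study's methods), and were profiled for GR and NFIA (3 libraries for each factor and cell type). The mice of these oligodendrocyte and neuron libraries were normally reared. Labelling therefore went with cell type, and the 2 cannot be told apart. Each in vivo replicate pooled 3 to 5 mice and used 175000 nuclei. GR was further profiled in 3T3 cells, an established mouse fibroblast line, after 2 h with 200 nM dexamethasone (DEX, a synthetic GR agonist) or vehicle, from 50000 (50K) or 250000 (250K) nuclei (2 libraries for each of the 4 groups). No source says that the 3T3 replicates were separate cultures, so tests there measure the spread between libraries, which may be technical.

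Semaphorins are secreted, membrane-spanning or lipid-anchored proteins that steer growing axons and shape synapses. Plexins are their signalling receptors, and neuropilins are co-receptors that most class 3 semaphorins need in order to act through class A plexins. Ephrins are cell-surface ligands, the A type held by a lipid anchor and the B type by a membrane span, and Eph receptor tyrosine kinases on a neighbouring cell bind them. Astrocytes carry several of these proteins at the contacts they make with neurons.

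The lists differed greatly in length, which bears on each comparison. In vivo GR lists held 2262 to 21539 peaks in NR astrocytes, 28 to 293 in DR, 6792 to 7761 in GR-con, 413 to 1846 in GR-KO, 4 to 110 in oligodendrocytes, 916 to 2446 in InN and 61 to 4563 in ExN. NFIA lists held 22373 to 27143 peaks in astrocytes and 1 to 4173 in the other cell types, and 3T3 lists held 189 to 5010. Sequencing depth is not part of these lists, so a gene without a peak is one at which no peak was detected, and fewer nuclei with a bound site cannot be told apart from weaker binding in each nucleus. The in vivo lists reached q values of up to 0.01 and the 3T3 lists up to 0.05, so peak numbers are not compared between them. At 10 astrocyte markers the summed number of peaks was 15 to 73 in NR, 0 to 5 in DR, 30 to 36 in GR-con, 0 to 10 in GR-KO and 65 to 80 in the NFIA astrocyte libraries, against 0 to 2 in every oligodendrocyte and neuron library. In the GR InN libraries 8 of 10 inhibitory-neuron markers held a peak. Summed peaks at these markers were 3 to 11 in the GR InN and 0 to 12 in the NFIA InN libraries. They were 1 to 7 in the GR NR and 8 to 11 in the NFIA astrocyte libraries. Of 10 excitatory-neuron markers 2 held a peak in the GR ExN and 3 in the NFIA ExN libraries, against 7 in the GR NR and 6 in the NFIA astrocyte libraries, so that the peak lists did not set ExN apart by these markers. The GR oligodendrocyte libraries had no peak at any of 10 oligodendrocyte markers and the NFIA oligodendrocyte libraries had one at Cnp alone, so that label could not be checked.

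In NR astrocytes, GR peaks lay around 9 to 40 of the 53 genes in a library, and in DR astrocytes around 0 to 2. Summed over the genes, with a peak in overlapping windows counted for each gene, NR replicates 1 to 3 held 107, 13 and 157 peaks and DR replicates 0, 1 and 2. Counted once each, these peaks were 0.764, 0.575 and 0.715% of all peaks of the NR libraries in the same order. GR-con libraries held 33 and 51 peaks at the genes and GR-KO libraries 5 and 1. None of the 3 GR oligodendrocyte libraries held any, InN libraries held 17, 3 and 9, and ExN libraries 19, 0 and 3. The NFIA astrocyte libraries held 199, 190 and 155.

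**Figure D1:**
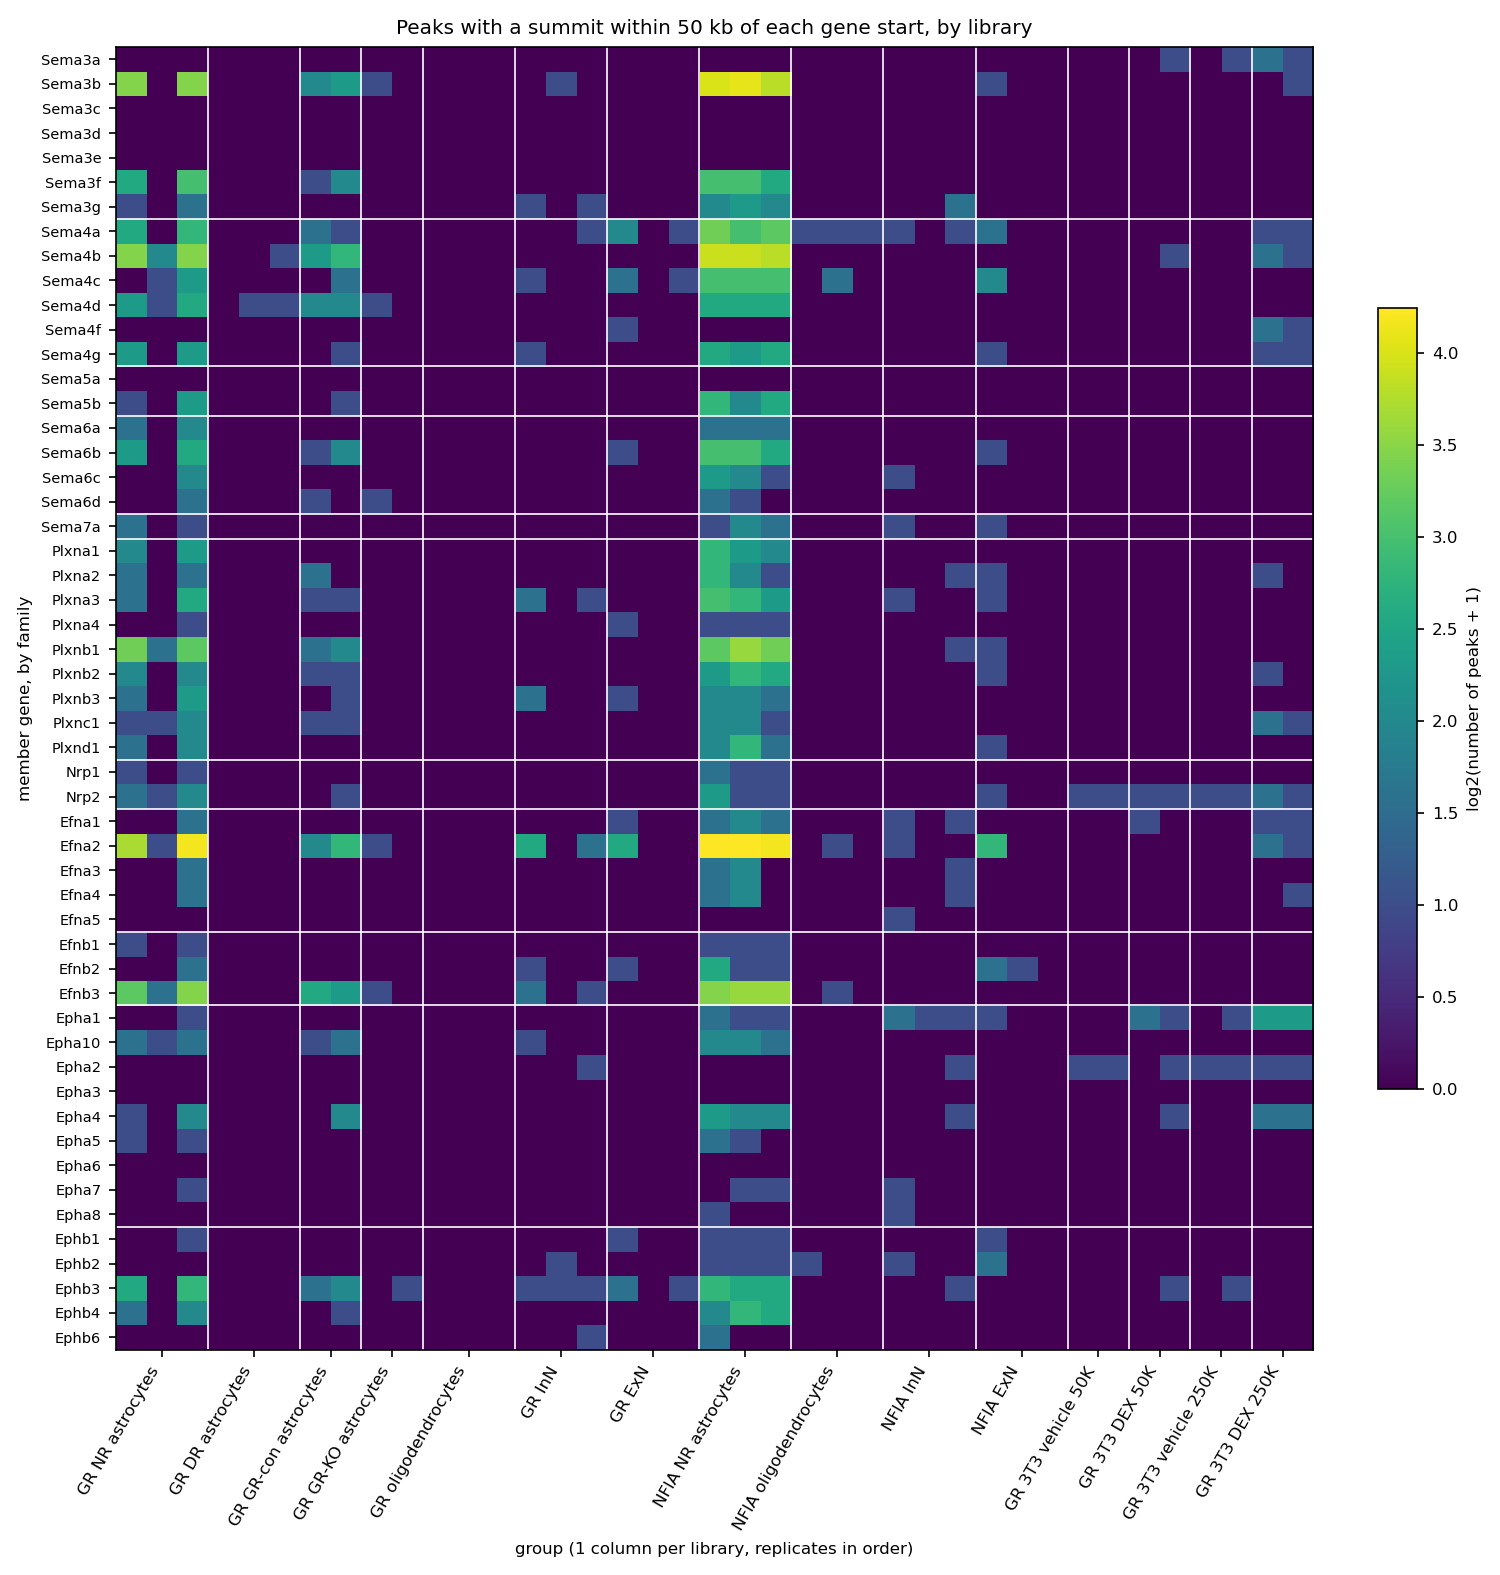
Number of peaks within 50 kb of the start of each of the 53 genes (rows, by family) in each of the 39 libraries (columns, by group). Colour gives log2(number of peaks + 1). Peaks gather in the NR, GR-con and NFIA astrocyte columns, and the GR oligodendrocyte columns are empty.

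The first comparison asked how GR binding near these genes differed between normally reared and dark-reared astrocytes. A gene was called higher where its lowest library in 1 group held more peaks than its highest library in the other. By that rule 7 of 53 genes (13.2%) were higher in NR than in DR, against 10.6% of all 21938 genes, and none was lower. They were the ligands Sema4b, Efna2 and Efnb3 and the receptors Plxnb1, Plxnc1, Nrp2 and Epha10. Over all 53 genes the median difference in mean log2(peaks + 1) was 0.86, and over all genes 0.67.

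Among ligands, Sema4b, a membrane-spanning semaphorin (chr7:80186841-80226527), held 10, 3 and 10 peaks in the NR replicates and 0, 0 and 1 in the DR replicates. Its mean was 7.67 ± 4.04 in NR (SD, n = 3), and the NR minus DR difference was 2.64 on the log2(peaks + 1) scale. Efna2, a lipid-anchored ephrin (chr10:80179482-80190010), held 12, 1 and 17 peaks in NR and none in DR, a log2 difference of 2.96. Efnb3, a membrane-spanning ephrin (chr11:69554092-69560205), held 8, 2 and 10 peaks in NR and none in DR, a log2 difference of 2.74. In each of the 3 genes NR replicate 2 was the lowest NR library and still lay above every DR library. The log2(peaks + 1) scale understates the change of genes with few peaks.

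Among receptors, Plxnb1, which binds Sema4d (chr9:109095389-109119917), held 9, 2 and 8 peaks in the NR replicates and none in DR, a log2 difference of 2.69. Nrp2, a co-receptor of class 3 semaphorins (chr1:62703285-62818695), held 2, 1 and 3 peaks against none, a log2 difference of 1.53. Epha10, an Eph receptor without kinase activity (chr4:124880899-124917800), held 2, 1 and 2 peaks against none, a log2 difference of 1.39. Plxnc1, the plexin that binds Sema7a (chr10:94790866-94944835), held 1, 1 and 3 peaks against none, a log2 difference of 1.33. For these 4 receptors the groups were separated by as little as 1 peak in NR replicate 2, except Plxnb1, where they were separated by 2.

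With 3 libraries against 3, the smallest p that the exact two-sided permutation test can give is 0.1, and all 7 genes reached it (adjusted p = 0.505 over all genes with a peak). No gene could therefore pass 0.05 in this comparison. The full separation by which the 7 were called fixes their p, so it adds nothing to the call. NR replicate 2, the shortest NR list, decided the count: without it 29 genes (50.7% of all genes) were higher. The same 7 were among them, as the rule requires.

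**Figure D2:**
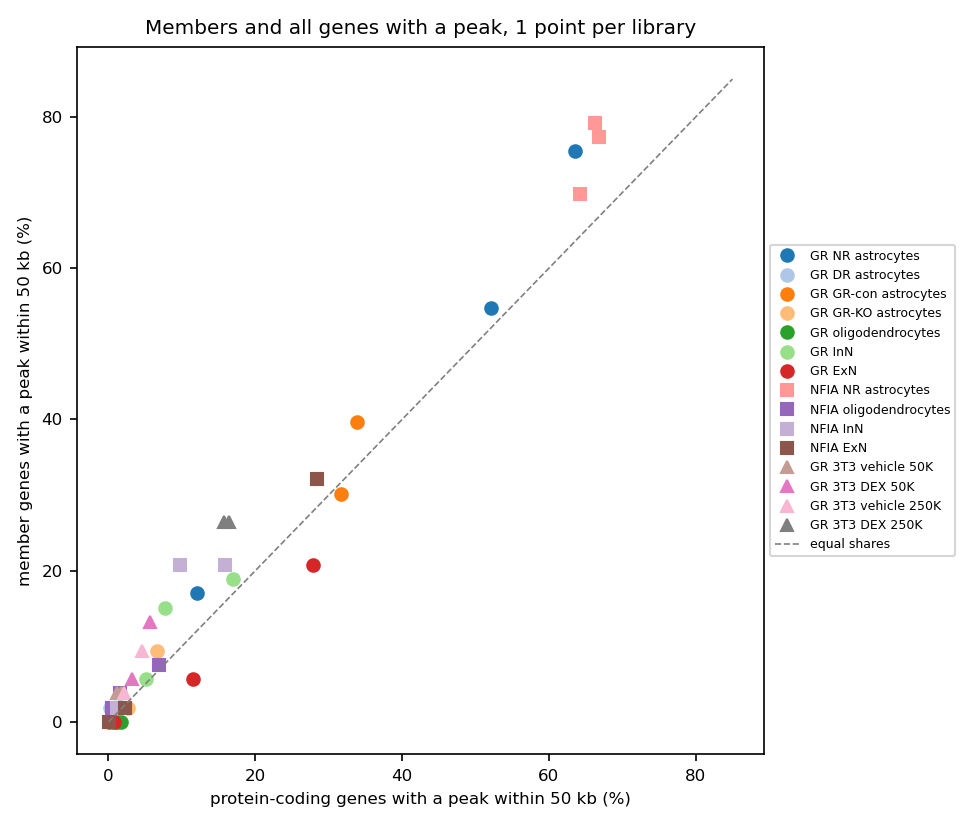
Percent of the 53 genes (vertical axis) against percent of all 21938 protein-coding genes (horizontal axis) with a peak within 50 kb, with 1 point per library coloured by group and a dashed line of equal shares. NR and NFIA astrocyte libraries other than NR replicate 2 lie at the upper right, somewhat above the line, and DR, GR-KO and oligodendrocyte libraries lie near the origin.

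The deletion of Nr3c1 itself is not measured by peak lists, so GR-con and GR-KO libraries are compared by their labels. GR-con exceeded GR-KO at 14 of 53 genes (26.4%, against 20.0% of all genes), and no gene was lower. Among semaphorins Sema4b held 4 and 6 peaks in GR-con and none in GR-KO, a log2 difference of 2.56. The secreted Sema3b held 3 and 4 peaks against 1 and 0 (log2 difference 1.66), and Sema4d 3 and 3 against 1 and 0 (1.50). Sema3f and Sema6b each held 1 and 3 peaks against none (1.50), and Sema4a 2 and 1 against none (1.29).

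Among the other families, Efnb3 held 5 and 4 peaks in GR-con against 1 and 0 in GR-KO (log2 difference 1.95) and Efna2 3 and 6 against 1 and 0 (1.90). Plxnb1 held 2 and 3 peaks against none (1.79). Epha10 held 1 and 2 against none, and Ephb3, an EphB receptor, 2 and 3 against 0 and 1 (1.29 each). Plxna3, Plxnb2 and Plxnc1 were the rest (1.00 each). For 5 of the 14 genes (Sema3b, Sema4d, Efna2, Efnb3 and Ephb3) a GR-KO library also held a peak. The median log2 difference was 0.00 over the 53 genes and over all genes. With 2 libraries against 2 the smallest exact permutation p is 0.33 (adjusted p = 0.703). All 14 genes had it, which the separation by which they were called already gives. When the same number of top peaks was taken from each library with at least 500 peaks, which leaves 1 GR-KO library, 3 genes were higher (Sema4b, Plxnb1 and Epha10) (2.63% of all genes) and 2 were lower (Sema3b and Sema6d, 2.48%). Without GR-con replicate 1, the count was 21 genes (30.5% of all genes).

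**Figure D3:**
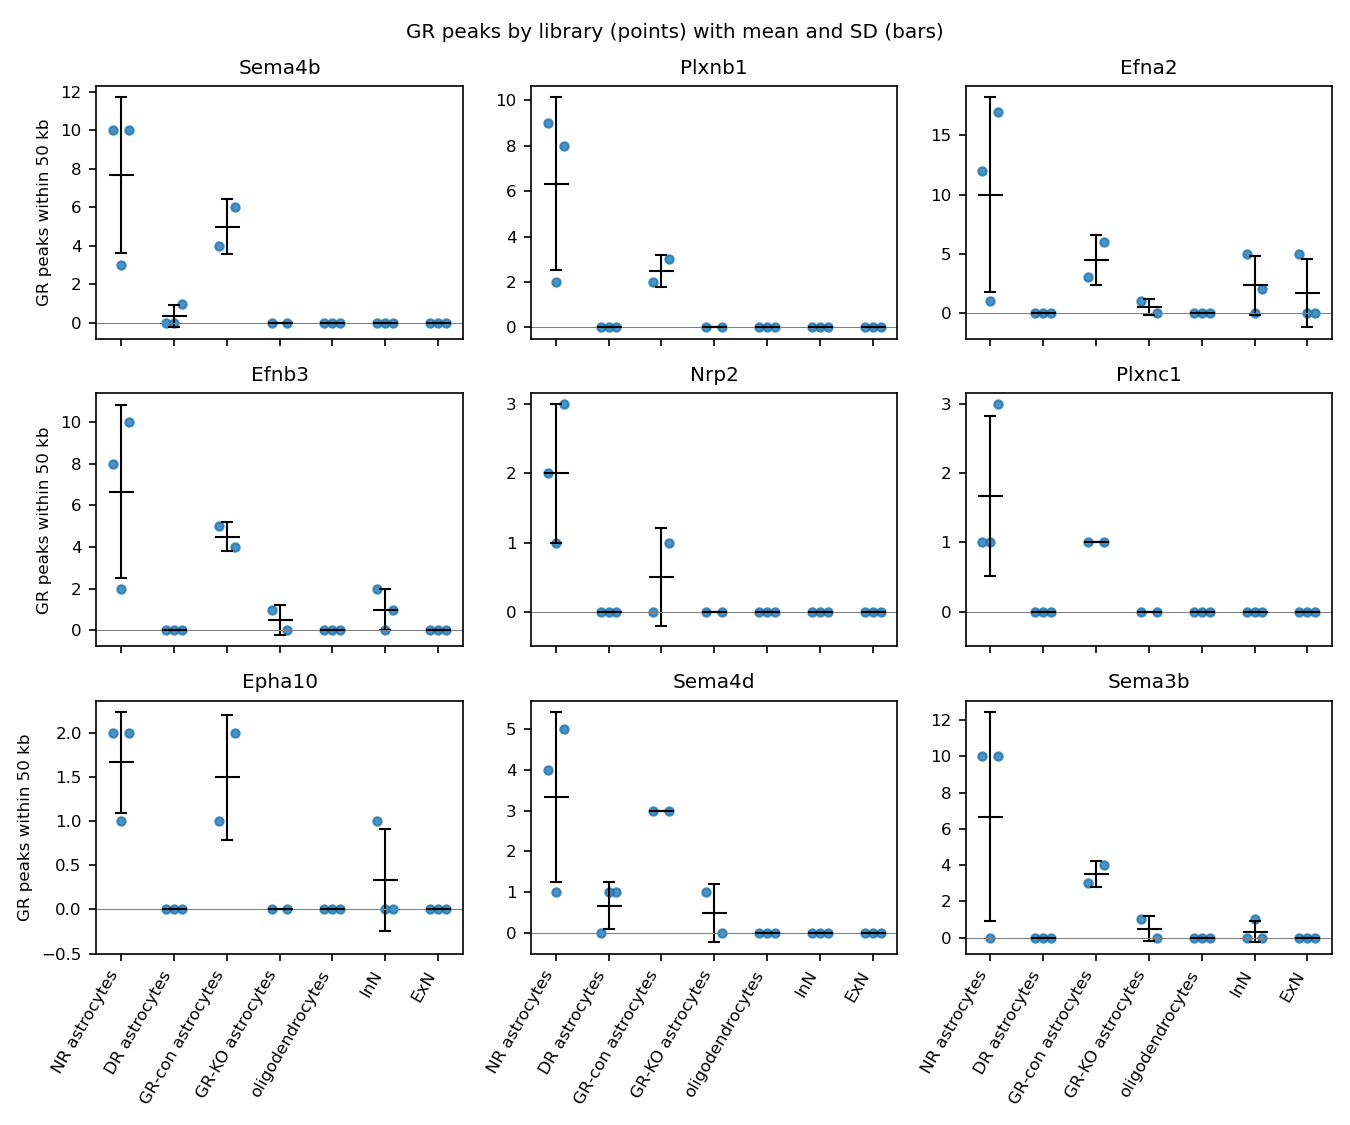
GR peaks within 50 kb of 9 of the genes in 7 groups of in vivo libraries (points are libraries, bars mean ± SD; the axis is the number of peaks and its range differs between panels). Sema4b and Plxnb1 have peaks in every NR and GR-con library and stand at 0 in every oligodendrocyte and neuron library.

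Every peak that DR or GR-KO libraries held at these genes can be named. In DR there were 3. Replicates 2 and 3 shared a peak in an intron of Sema4d (chr13:51771661-51771964 in replicate 3), a membrane-spanning ligand of plexin-B1, with fold enrichments (the peak caller's signal over its local background) of 6.53 and 12.8. Replicate 3 had a further peak at an inner start of Sema4b (chr7:80198044-80198141, fold enrichment 9.7). In GR-KO replicate 1 had 5 and replicate 2 had 1. Those of replicate 1 lay in the Sema4d intron (9.19), at Cbarp in the Efna2 window (7.52), in an intron of Sema6d (4.72), at Ifrd2 in the Sema3b window (4.2) and in an exon of Atp1b2 in the Efnb3 window (3.34). That of replicate 2 lay at an inner start of Ephb3 (5.81). The Sema4d intron site was the only one of these that was present in all 4 groups of astrocyte GR libraries, in 3 of 3 NR, 2 of 3 DR, 2 of 2 GR-con and 1 of 2 GR-KO libraries.

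The comparison with other cell types asked whether GR binding near the genes differed between astrocytes and 9 libraries of oligodendrocytes, InN and ExN. NR astrocytes exceeded all 9 at 5 of 53 genes (9.43%, against 4.52% of all genes). These were Sema4b (log2 difference 2.97), Plxnb1 (2.69), Sema4d (1.97), Nrp2 (1.53) and Plxnc1 (1.33), and each stood at 0 in all 9 other libraries. Sema4d, which also has peaks in DR, held 4, 1 and 5 peaks in the NR replicates. The exact permutation p of each was 0.00455, the smallest that 220 arrangements allow and the value that this separation already gives. Its adjusted p was 0.0691, so no gene passed 0.05, while at an unadjusted p under 0.05 there were 24 of 44 genes tested, against 51% of 15069 genes. With equal numbers of top peaks the count was 2 (Sema4b and Plxnb1, 0.957% of all genes). That run kept 5 of the 9 other libraries, none of them of oligodendrocytes. Without NR replicate 2 and with all 9 other libraries the count was 26 (37.9% of all genes). The median log2 difference was 0.67 over the 53 genes and 0.54 over all genes.

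Against each cell type alone, NR astrocytes were higher at 8 genes for oligodendrocytes (10.3% of all genes), at 5 for InN (6.92%) and at 7 for ExN (5.29%). Efnb3 and Epha10 were higher than in oligodendrocytes and ExN but overlapped with InN, in which replicate 1 held 2 and 1 peaks. Efna2 was separated only from oligodendrocytes, since InN held 5, 0 and 2 peaks and ExN 5, 0 and 0. A site repeated in at least 2 libraries of a group was found at 4 genes in InN (Efna2, Efnb3, Ephb3 and Plxna3) and at 2 in ExN (Ephb3 and Sema4a). These were 7.55% of the 53 genes against 4.99% of all genes in InN, and 3.77% against 8.8% in ExN. All of these sites overlapped NR astrocyte sites, 4 of 4 in InN against 34.2% of all InN sites and 2 of 2 in ExN against 46.5%. The Ephb3 site (chr16:21204434-21204847) covered the start of the gene and was called in 3 of 3 InN libraries with fold enrichments of 5.89, 3.22 and 3.26, in 2 of 3 ExN libraries (7.33 and 5) and in 2 of 3 NR libraries (16 and 29.8).

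NFIA peaks were more numerous in astrocytes than in all 9 other libraries at 28 of 53 genes (52.8%, against 50.4% of all genes), and no gene was lower. The median log2 difference was 1.50 over the 53 genes and 1.08 over all genes. By the exact permutation test 34 of 45 genes with a peak had an adjusted p under 0.05, against 82.1% of 15852 genes. The 28 held an adjusted p of 0.00653 each, which the separation by which they were called already gives. They comprised 11 semaphorins (3 of class 3, 5 of class 4, 1 of class 5 and 2 of class 6), 8 of 9 plexins, Nrp1, 2 ephrin-A, 2 ephrin-B, 2 EphA and 2 EphB genes. Against each cell type alone, astrocytes were higher at 35 genes for oligodendrocytes (59.6% of all genes), at 31 for InN (56.1%) and at 29 for ExN (53.5%).

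Sema4b held 14, 14 and 13 NFIA peaks in the astrocyte replicates and none in the other 9 libraries, a log2 difference of 3.87. Sema3b held 15, 16 and 13 (3.85) and Efna2 18, 18 and 17 (3.69), with 1 and 6 peaks in ExN replicate 1. Efnb3 held 10, 11 and 11 peaks (3.43) and Plxnb1 8, 11 and 9 (3.14). For these genes the astrocyte replicates varied little, with an SD of 0.577 to 1.53 peaks. Sema3f held 7, 7 and 5 peaks (2.86), Sema6b, a ligand of class A plexins, 7, 7 and 5 (2.75), Sema4c 7, 7 and 7 (2.60) and Sema4d 5, 5 and 5 (2.58).

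Among further receptors, Ephb3 held 6, 5 and 5 NFIA peaks in astrocytes (log2 difference 2.55), Plxna3 7, 6 and 4 (2.49) and Plxnb2 4, 6 and 5 (2.46). The rest of the 28 were Ephb4, Sema5b, Sema4a, Sema4g, Plxna1, Plxnd1, Epha4, Sema3g, Epha10, Plxnb3, Plxnc1, Sema6a, Efna1, Nrp1, Efnb1 and Plxna4, with log2 differences of 1.00 to 2.46. Efna1, Efna3 and Efna4 lie in a cluster on chromosome 3 and share peaks. With equal numbers of top peaks 3 genes were higher (Sema4b, Plxnb1 and Epha10, 1.24% of all genes), in a run that kept 4 of the 9 other libraries, and none was lower.

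**Figure D4:**
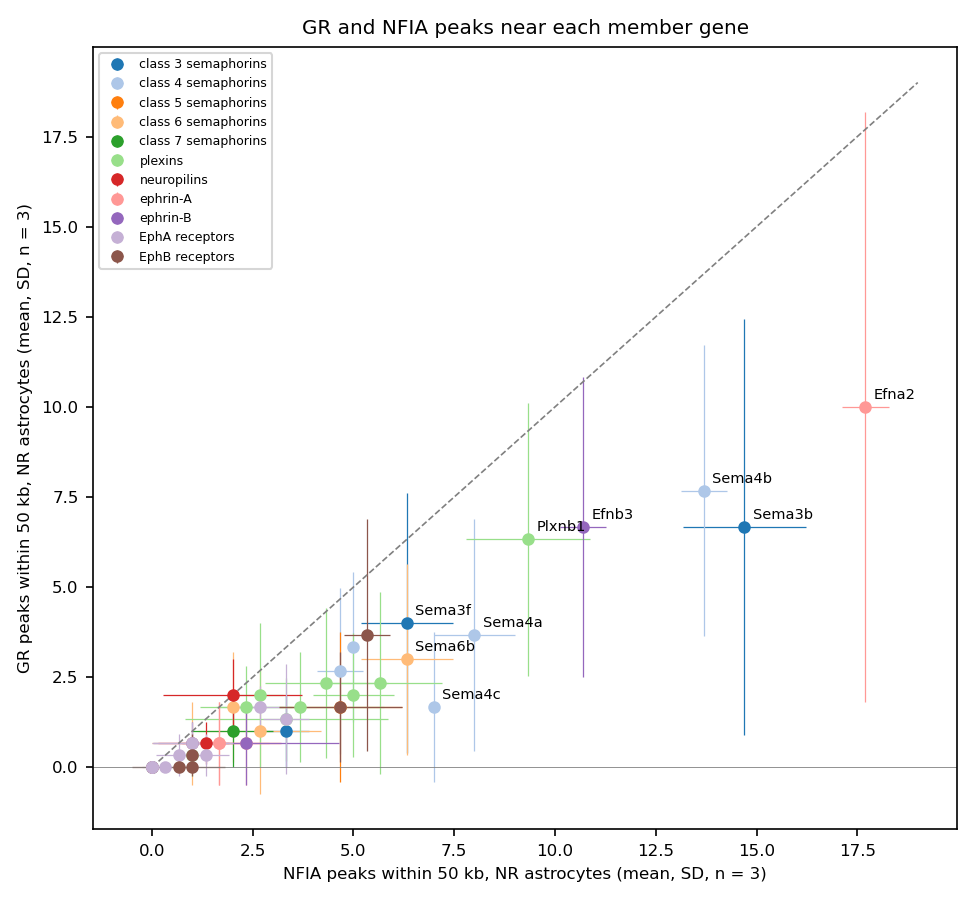
Mean number of peaks per gene for GR (vertical axis) against NFIA (horizontal axis) in NR astrocytes, with SD over 3 libraries each and a dashed line of equal numbers. None of the 53 genes lies above the line, with Efna2, Sema3b and Sema4b at the far right.

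Nearly all GR sites around these genes overlapped an NFIA site, near the share over all GR sites, while many NFIA sites had no GR site. Sites were built from peaks that overlapped by at least 1 bp and were kept where 2 or more libraries of the group held one. In NR astrocytes there were 97 GR sites at 28 of the 53 genes (52.8%, against 50.4% of all genes), and 167 NFIA sites at 40 genes (75.5%, against 65.1%). An NFIA site overlapped 95 of the 97 GR sites (97.9%, 95% Wilson interval 92.8 to 99.4%), against 95.3% of all GR sites. The 2 without one lay in an intron of Nrp2 and in an intron near Pdzd7 in the Sema4g window, and each was overlapped by a peak of 1 NFIA library. A GR site overlapped 93 of the 167 NFIA sites (55.7%, 48.1 to 63%), against 50.4% of all NFIA sites. All 22 GR-con sites overlapped both an NFIA and an NR site. GR and NFIA were profiled in separate libraries, so overlap does not show that both bound the same molecule, and the intervals cover counting error only. In InN and ExN, 0 of 4 and 0 of 2 GR sites overlapped an NFIA site of the same cell type, against 7.7 and 7.45% of all sites there.

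Of the 97 NR sites, 11 were called in every NR library. At Sema4b 3 such sites lay in the gene: near its start (chr7:80187048-80187339, fold enrichment 7.1, 7.97 and 24.2 in replicates 1 to 3), at an inner start (chr7:80197945-80198254, 10.2, 5.75 and 11.3) and in an exon toward the gene's end, nearer to the start of Cib1 (chr7:80216596-80216904, 16.6, 6.29 and 16.6). At Plxnb1 they were an intron site (chr9:109097765-109098269, 14.1, 7.57 and 19.4) and one at an inner start (chr9:109105114-109105309, 4.48, 3.93 and 6.94). The Sema4d intron site reached 3.62, 24.3 and 9.05. The Plxnc1 site lay upstream in intergenic sequence (chr10:94990850-94991103, 6.67, 4.22 and 9.44). The other 4 lay nearer to other genes: at Trp53 (21.2, 5.3 and 27.9) and Atp1b2 (9.68, 5.87 and 15.1) in the Efnb3 window, at Cbarp in the Efna2 window (16.1, 6.16 and 24.9) and at Yrdc in the Epha10 window (15.1, 8.75 and 14.4). In GR-con 10 of the 11 were called in both libraries, the strongest being the Trp53 site (8.82 and 13.3). All 11 were overlapped by a peak in each NFIA astrocyte library. Nrp2, called above, had no site in every library: its only site (chr1:62742317-62742413) was absent from NR replicate 2, whose 1 peak lay elsewhere in the window.

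For NFIA 121 of 167 sites were called in every library. The strongest was an intron site of Sema4b (chr7:80192343-80192676) with fold enrichments of 34.5, 29.6 and 32.6, overlapped by a GR peak in 2 of 3 NR libraries. Next came the site near Trp53 in the Efnb3 window (34.3, 33.6 and 25.6) and the Plxnb1 intron site (32.6, 29.7 and 20.1). The site in the Epha10 window reached 28.3, 29.6 and 18.8 and the Ephb3 start 28, 15.6 and 22.9. A site in an exon of Tmod4 in the window of Sema6c, a membrane-spanning ligand, reached 24, 27.3 and 24.6 and had a GR peak in 1 NR library. The Cbarp site in the Efna2 window reached 22.4, 30.2 and 24.0, and the start of Sema4b 19.1, 23.5 and 22.5. Ephb3 had 2 further sites among the strongest 12, downstream of the gene (chr16:21238801-21239100, 21.5, 26.9 and 19.4) and at an inner start (chr16:21210727-21211289, 23.0, 20.6 and 20.2). The last 2 of the 12 lay in an exon in the Sema3b window (chr9:107650820-107651006, 22, 19 and 17.8) and at the start of Dnase1l1 in the Plxna3 window (chrX:74282941-74283154, 19.4, 23.7 and 14.1). Outside astrocytes a repeated NFIA site was found at 1 gene in each cell type (1.89%, against 1.39% of all genes in oligodendrocytes, 3.53% in InN and 1.97% in ExN): in an intron of Lmna in the Sema4a window in 3 of 3 oligodendrocyte libraries (4.79, 4.65 and 6.98), in an intron of Zyx in the Epha1 window in 3 of 3 InN libraries (7.11, 7.11 and 8.91) and at the start of Efnb2, a membrane-spanning ephrin, in 2 of 3 ExN libraries (6.02 and 3.13).

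Sequence at these sites was read from the mm10 genome in windows reaching 50 bp to either side of the summit, to show which letters carry the matches that follow. TTGGCA, read on both strands, is the NFI half-site. It occurred in 8 of 97 NR sites at the genes (8.25%, 4.24 to 15.4%), against 12.3% of all NR sites, and in 19 of 167 NFIA sites (11.4%, 7.41 to 17.1%), against 17.1% of all. The full NFI site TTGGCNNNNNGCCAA, which contains the first 5 letters of the half-site on either strand, occurred in 3 of 167 NFIA sites (1.8%, against 0.362%), in the windows of Sema4c, Sema4a and Ephb2. The glucocorticoid response element GNACANNNTGTNC occurred in 0 of 97 NR sites (upper limit 3.81%), against 0.658% of all, and TGANTCA, the AP-1 motif, in 2 (2.06%, against 2.34%). No match says only that these letters were not in the window. The Sema4b site is printed as 1 of the 11 repeated GR sites and the Ephb3 site as a leading NFIA site that a GR-KO peak also touched, with TTGGCA in capitals:
Sema4b exon site, chr7:80216694-80216794, plus strand: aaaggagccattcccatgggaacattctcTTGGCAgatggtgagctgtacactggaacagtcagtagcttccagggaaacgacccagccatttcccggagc
Ephb3 inner-start site, chr16:21211046-21211146, plus strand: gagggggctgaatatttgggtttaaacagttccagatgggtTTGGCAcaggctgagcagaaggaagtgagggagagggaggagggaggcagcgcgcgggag

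A site within 50 kb of a gene can lie nearer to another gene. A member of the set was the nearest protein-coding start for 41 of the 97 NR sites (42.3%, 32.9 to 52.2%) and for 75 of the 167 NFIA sites (44.9%, 37.6 to 52.5%). The genes divided by this measure. Ephb3 (5 of 5 sites), Sema4d (4 of 4), Plxna1 (3 of 3), Plxnb1 (6 of 7) and Sema4b (6 of 10) were nearest to most of their NR sites. Efna2 was nearest to 1 of 12, Sema3b to 1 of 8, Efnb3 to 0 of 8, Sema6b, Plxnb2 and Sema4g to 0 of 3 each, and Epha10 to 0 of 2. For Efnb3 the nearest starts were those of Atp1b2, Trp53 and Wrap53. A site within 500 bp of a gene's own start was found in NR for 9 of 53 genes (17%, against 21.4% of all genes): Sema4a, Sema4b, Sema6a, Plxna1, Plxnb1, Plxnd1, Efnb1, Ephb3 and Ephb4. For NFIA there were 19 (35.8%, against 33.8%), and in GR-con only Sema4b (1.89%, against 4.71%).

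By annotation, 51 of the 97 NR sites lay within 500 bp of a protein-coding transcript start (52.6%, 42.7 to 62.2%), 4 in other exons, 23 in introns and 19 between genes. Of all NR sites 42.9% lay at such starts. For NFIA the shares were 84 of 167 (50.3%, 42.8 to 57.8%) and 37.7%. The median number of other protein-coding starts within 50 kb was 0 for the 53 genes (range 0 to 8) and 2 for all genes (0 to 19). Of the 32 genes with 0 or 1 other start in the window, 2 were higher in NR than DR (8.5% of all such genes), of the 12 with 2 to 4 starts 4 were (10.6%), and of the 9 with 5 or more 1 was (17.8%). For NFIA against other cell types the counts were 11, 10 and 7 (40.8, 56 and 68.8% of all such genes).

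**Figure D5:**
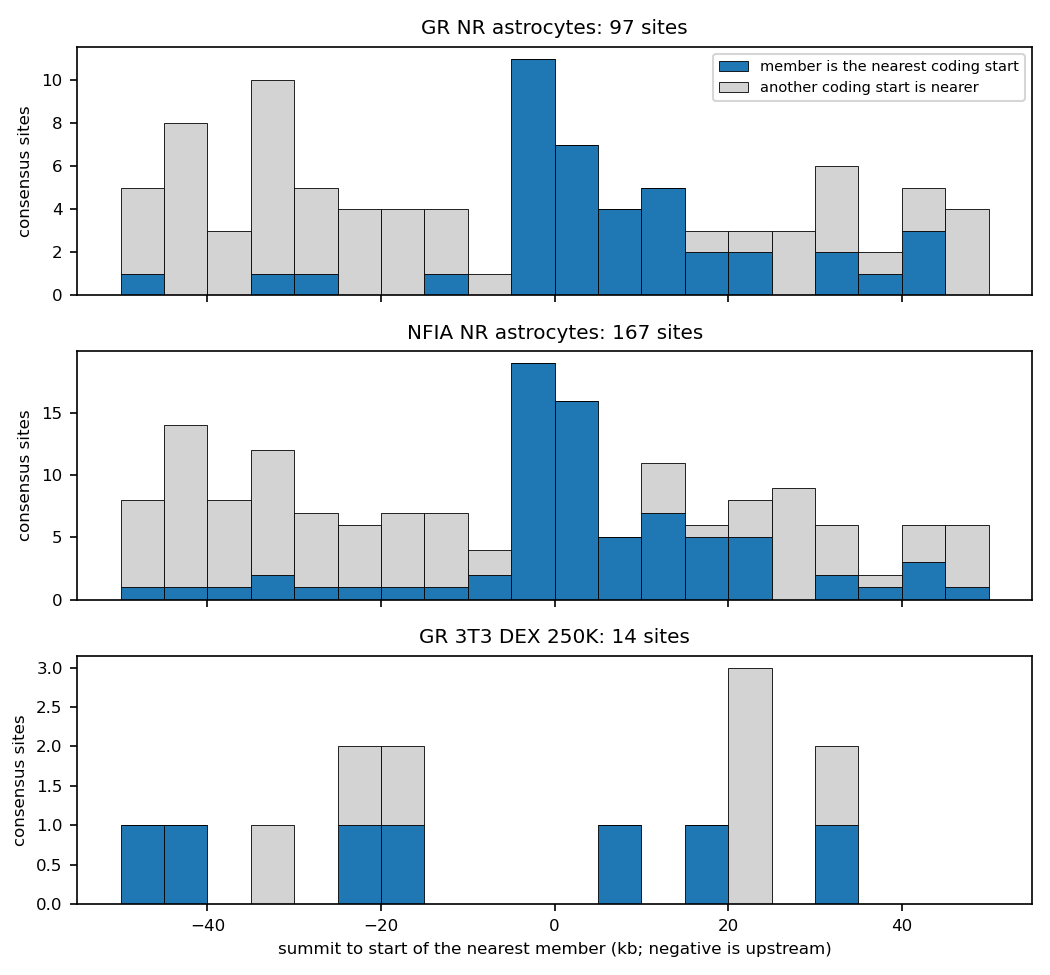
Signed distance from each site to the nearest of the 53 gene starts (kb, 5-kb bins, negative upstream) for NR GR (97 sites), NR NFIA (167) and 3T3 DEX 250K GR (14). Blue bars are sites for which that gene has the nearest protein-coding start, and they gather around 0, while grey bars are sites nearer to another gene.

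In 3T3 cells the comparison asked which of the genes gained GR peaks with DEX at both numbers of nuclei. Epha1, an EphA receptor (chr6:42358487-42373268), did, 1 of 53 genes (1.89%, against 1.47% of all genes). It held 2 and 1 peaks in DEX 50K, 4 and 4 in DEX 250K, 0 and 0 in vehicle 50K and 0 and 1 in vehicle 250K. Over both numbers of nuclei the means were 2.75 ± 1.5 with DEX and 0.25 ± 0.5 with vehicle (SD, n = 4 each). These SDs include the difference between 50K and 250K libraries. The log2 difference was 1.56 (exact permutation p = 0.0556, the smallest that 36 arrangements allow, adjusted p = 0.781). That p follows from the separation by which Epha1 was called. The DEX 250K sites in its window lay nearest to Zyx or Tas2r143. With 250K nuclei alone 9 genes were higher with DEX (9.03% of all genes): Sema4a, Sema4b, Sema4f, Sema4g, Plxnc1, Efna1, Efna2, Epha1 and Epha4. An intergenic site in the Epha1 window (chr6:42340147-42340415) was called in all 4 DEX libraries and in no vehicle library. The median log2 difference was 0.00 over the 53 genes and over all genes. Leaving out DEX 50K replicate 1 gave 3 genes (adding Epha4 and Sema4b, 3.30% of all genes) and leaving out DEX 50K replicate 2 gave 2 (adding Efna1, 1.94%).

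Some 3T3 peaks did not depend on DEX. A site in an intron of Nrp2 (chr1:62722028-62722189) was called in all 8 libraries, with fold enrichments of 12.7 to 15.4 in vehicle and 8.91 to 12.5 in DEX libraries. A site in an intron of Epha2, an EphA receptor (chr4:141310466-141310591), was called in all 4 vehicle libraries (7.21 to 11.4) and in 3 of 4 DEX libraries. No brain library held a peak at either site. DEX 250K sites at the genes numbered 14, at 11 genes (20.8%, against 10.2% of all genes), and 1 of them overlapped an NR astrocyte site (7.14%, against 7.38% of all DEX 250K sites). That was the intergenic site upstream of Plxnc1 (chr10:94990905-94991103, 10.9 and 8.68), which was called in 3 of 3 NR, 2 of 2 GR-con, 3 of 3 NFIA and 2 of 2 DEX 250K libraries and in no vehicle library. A site in the window of Sema4f, a membrane-spanning semaphorin (chr6:82909254-82909415, 9.71 and 10.8), was called in both DEX 250K libraries alone. At Sema4b the DEX 250K site lay upstream of the gene (chr7:80166780-80166930, 11.4 and 6.58), where no astrocyte library had a peak.

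Motif matches in these 14 sites were 1 glucocorticoid response element (7.14%, against 5.27% of all DEX 250K sites), 2 of the looser form ACANNNTGT that lies within it (14.3%, against 12.8%), 5 of AP-1 (35.7%, 16.3 to 61.2%, against 28.6%) and 0 NFI half-sites (11.3% of all). The windows below show the site shared by vehicle and DEX in Nrp2 (ACANNNTGT in capitals) and in Epha2 (TGANTCA), and DEX sites near Epha1 (GNACANNNTGTNC) and Sema4b (TGANTCA):
Nrp2 intron site, chr1:62722101-62722201, plus strand: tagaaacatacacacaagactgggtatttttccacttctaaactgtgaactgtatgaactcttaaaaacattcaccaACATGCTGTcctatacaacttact
Epha2 intron site, chr4:141310473-141310573, plus strand: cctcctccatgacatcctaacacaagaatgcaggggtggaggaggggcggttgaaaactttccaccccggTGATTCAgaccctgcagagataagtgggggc
Epha1 window site, chr6:42396533-42396633, plus strand: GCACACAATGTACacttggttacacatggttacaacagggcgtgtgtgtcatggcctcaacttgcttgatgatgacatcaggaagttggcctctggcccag
Sema4b upstream site, chr7:80166802-80166902, plus strand: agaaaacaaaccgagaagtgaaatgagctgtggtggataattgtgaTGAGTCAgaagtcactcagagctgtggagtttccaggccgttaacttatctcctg

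No peak was detected in any of the 39 libraries at 6 of the 53 genes (11.3%, against 23.7% of all genes): the secreted Sema3c, Sema3d and Sema3e, the membrane-spanning Sema5a, and the receptors Epha3 and Epha6. None of them had another protein-coding start within 50 kb. Epha3 was thus without a GR or NFIA peak within 50 kb in every group (chr16:63543534-63864175). The study names Epha3 for RNA raised in neurons after loss of GR in astrocytes, at a later age than the in vivo libraries. For that change it proposes a signal from astrocytes to neurons, which was not tested here. Sema3a, the class 3 ligand that signals through Nrp1, had peaks in 3T3 libraries alone, and Efna5 had 1 peak in NFIA InN replicate 1 alone. The class 3 semaphorins thus ranged from none to 16 peaks in a library (Sema3b, NFIA astrocyte replicate 2).

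Other genes of the pathway were counted from 2 lists. Of 44 effectors and co-receptors 43 were found in the annotation (Grb4 was not). GR was higher in NR than DR astrocytes at 6 of them (Mical2, Rhoa, Vav2, Itsn1, Arhgef12 and Rhod), in GR-con than GR-KO at 12, and in NR astrocytes than other cell types at 2 (Mical1 and Arhgef12). Mical1 and Mical2 act downstream of plexins, and Rhoa and Arhgef12 in the contraction of the growth cone. NFIA was higher in astrocytes at 25, and GR with DEX in 3T3 cells at 1 (Rac1). Of 30 netrin, Slit and other guidance genes the counts in the same order were 4 (Ntn5, Robo4, Unc5b and Srgap2), 9, 2 (Draxin and Robo4), 13 and 0. Median log2 differences in that order were 0.86, 0.00, 0.67, 1.30 and 0.00 for the effectors and 0.67, 0.50, 0.54, 1.04 and 0.00 for the other guidance genes. As shares the effectors gave 14, 27.9, 4.65, 58.1 and 2.33% and the other guidance genes 13.3, 30, 6.67, 43.3 and 0%, beside 10.6, 20.0, 4.52, 50.4 and 1.47% of all genes. No gene of either list was lower in any of the 5 comparisons.

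Markers of cell types were counted in the same order of comparisons, in which 10.6, 20.0, 4.52, 50.4 and 1.47% of all genes were higher. Of 10 astrocyte markers 6, 7, 7, 10 and 1 were higher, and of 10 oligodendrocyte-lineage markers 2, 2, 2, 6 and 2. Olig1 and Olig2 were the oligodendrocyte-lineage markers with more GR peaks in NR than DR, and in NR astrocytes than in other cell types. Of 10 inhibitory-neuron markers 1, 0, 0, 1 and 0 were higher, of 10 excitatory-neuron markers 0, 2, 0, 3 and 0, of 10 fibroblast markers 0, 1, 0, 4 and 2, of 10 microglial markers 0, 1, 0, 4 and 0, and of 5 endothelial markers 0, 1, 0, 3 and 0. In the 4 in vivo comparisons 60, 70, 70 and 100% of the astrocyte markers were thus higher. The 53 guidance genes gave 13.2, 26.4, 9.43 and 52.8%, nearer to the shares of all genes. A link between the 2 sets was not tested.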

How the data were processed

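CUT&RUN peak lists of 39 libraries from 15 groups were used. The other 11 of 50 samples (IgG controls and GFP-negative nuclei) were not analysed here. Reads were trimmed with cutadapt, aligned to mm10 with Bowtie2, filtered with Picard and SAMtools, restricted to short fragments with deepTools and called with MACS2 against IgG in each library by the authors. The sources used here do not say which IgG library was the control of which list. In the deposited narrowPeak layout, each peak made by the authors carries its fold enrichment (a ratio of signal to local background), the −log10 of its p-value and of its q-value, and a display score that MACS2 derives from the q-value. The study's methods give a q threshold of 0.05 for CUT&RUN. The lists themselves reach q of up to 0.01 in vivo and up to 0.05 in 3T3 cells. Peak lists hold no read depth. No columns of other samples were present (0).

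Peaks were counted where their summit lay within 50 kb of the 5′ end of each of 21938 protein-coding genes of GENCODE M21. Groups were compared by non-overlap of their libraries (in 3T3 cells within each number of nuclei) and by a two-sided exact permutation test of the difference in mean log2(peaks + 1), a pseudocount of 1. P-values were adjusted by the Benjamini-Hochberg method over all genes with a peak in the compared libraries, with a threshold of 0.05. Sites were merged peaks (at least 1 bp) found in 2 or more libraries, and promoters were within 500 bp of a protein-coding transcript start. Motifs were searched on both strands in windows reaching 50 bp to either side of summits. Intervals are 95% Wilson intervals and cover counting error only. Tools were Python 3.11.15, numpy 2.4.6, scipy 1.17.1, statsmodels 0.14.6, matplotlib 3.10.9 and pysam 0.24.0. The tests were tried on simulated data first. The genes, marker lists and pathway lists (effectors and co-receptors, netrin and Slit genes, and markers of 7 cell types) were chosen with earlier results of these data known. In each comparison the genes called were named in order of their difference, at most 12 with values per library, with every gene without a peak, Epha3, the strongest 12 sites in every library of a group and every DR and GR-KO site. Genes of other counts were named after their values were seen. Alternatives were other windows (10 and 100 kb), q of 0.001, any transcript start, sites in every library, leaving out each library, the replicate number as a block and, chosen after seeing the data, equal numbers of top peaks.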

Additional observations from a re-analysis of the deposited data

How the results depend on the processing

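Counts of genes higher in NR than DR, in GR-con than GR-KO, in NR astrocytes than other cell types for GR, in astrocytes for NFIA and with DEX (7, 14, 5, 28 and 1) became 2, 2, 2, 14 and 0 with a 10-kb window (3.84, 7.64, 1.74, 29.3 and 0.251% of all genes), and 18 genes then had an adjusted p under 0.05 for NFIA (69.1% of genes tested). With 100 kb the NR, GR-con and DEX counts became 15, 24 and 3 (18.6, 32.1 and 3.11%). At q of 0.001 or lower the cell-type count became 3 (4.25%) and the DEX count 0 (1.17%), with any transcript start the DEX count became 2 (1.86%), and with 250K nuclei alone 9 (9.03%). With equal numbers of top peaks in libraries with at least 500 peaks, chosen after seeing the data, the GR-con, cell-type, NFIA and DEX counts became 3, 2, 3 and 0 (2.63, 0.957, 1.24 and 0.579%). There Sema3b turned to -1.0 between GR-con and GR-KO, and for NFIA Efna1 and Sema3g turned to -0.25, Sema4a to -0.50 and Sema4c to -0.40 (log2 differences). With 10 kb Sema4g and Sema6b turned to -0.11 for NFIA. The form with every library was not run in any of the 5 comparisons, nor the form with 500 peaks for NR against DR, because the shortest lists hold too few peaks. Of the named genes' values under settings other than leaving out a library and the replicate block, 244 kept direction and call and 7 reversed. The other 79 lost the call without reversing, a class that includes differences of 0. The cause was not tested.

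Genes with a repeated site numbered 7 in NR, 0 in DR, 1 in InN, 0 in ExN and 0 in NFIA ExN when sites had to be in every library (10.5, 0.146, 0.779, 0.574 and 0.00456% of all genes). At q of 0.001 there was 1 in ExN and 1 in DEX 50K (6.73 and 1.91%). With 10 kb there were 12 in NR, 0 in DR, 2 in GR-con, 1 each in InN and ExN, 0 each in NFIA oligodendrocytes and NFIA InN, 1 in vehicle 50K, 0 in DEX 50K, and 1 each in vehicle 250K and DEX 250K (30.2, 0.0866, 8.48, 1.65, 3.60, 0.447, 1.22, 0.146, 0.451, 0.351 and 2.43% of all genes in that order). With 100 kb there were 24 in GR-con, 7 in ExN, 2 in NFIA oligodendrocytes, 3 in NFIA ExN, 4 in DEX 50K and 17 in DEX 250K (32.5, 14.9, 2.66, 3.55, 4.93 and 18.4%). The share of NR sites with an NFIA site was 100% for sites in every library and at q of 0.001, and 81.4% for summits within 50 bp. The share of NFIA sites with a GR site was 9.09% for sites in every library and 47.3% for summits within 50 bp, and the GR-con share with NFIA was then 81.8%. For sites in every library 36.4% of NR sites lay at promoters, 54.5% had a member as the nearest start, 0% held AP-1, and 1 gene in NR and 12 for NFIA had a site at their own start. Promoters of 2000 bp held 67% of NR and 63.5% of NFIA sites. In windows reaching 100 bp to either side 18.6% of NFIA sites held the NFI half-site and 64.3% of DEX 250K sites AP-1.

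Leaving out each library in turn gave 7 to 29 genes for NR against DR, 5 to 26 for GR in astrocytes against other cell types (both highest without NR replicate 2, with 50.7 and 37.9% of all genes) and 1 to 3 for DEX (highest without DEX 50K replicate 1, 3.30%). Genes with a repeated site ranged from 7 to 27 in NR, 0 to 1 in DR, 1 to 4 in InN, 0 to 2 in ExN and 0 to 1 in NFIA ExN. No called gene lost its call when a library was left out. The non-overlap rule fixes this in advance, since leaving out a library can only keep or add calls.

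Replicate numbers recur across groups. With the replicate block (higher in every same-numbered pair) the counts were 7, 14, 8, 30 and 1 (11.3, 21.1, 8.17, 53.1 and 1.55% of all genes). A gene called by non-overlap always meets this rule too, so these counts could not fall. For GR across cell types the deviations of same-numbered libraries correlated at -0.06 to 0.17, and those of differently numbered libraries at -0.17 to 0.12. With 2 or 3 libraries in a group such correlations cannot decide whether same-numbered libraries were processed together.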
